A study of Homo sapiens with 6 samples.

Results

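The Rel/NF-kB subunits and the IkB proteins that bind them were described at the RNA level in BL-2, an established Burkitt lymphoma cell line, after lipopolysaccharide (LPS) and without treatment. The family was taken as 10 genes, and a probe set was counted for a gene where the platform annotation gave that gene's symbol and no other. By this rule 9 of the 10 genes had 20 probe sets, out of 19775 genes and 54613 probe sets tested. BCL3 had no such probe set: both of the probe sets that carry its symbol also carry that of a microRNA, and no value is given for it. The groups were BL-2 cells exposed to LPS for 6 h (n = 3 arrays) and BL-2 cells with no treatment (n = 3 arrays). Both groups come from the same line, so they share its genotype and describe 1 tumour line. The labels give neither the LPS dose nor whether the 3 samples of a group were separate cultures, and the p-values therefore reflect only how far these samples spread, part of which may be technical. Because bulk RNA was measured, a change in the share of cells that express a gene and a change in RNA per cell cannot be told apart.

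NF-kB is a family of dimeric transcription factors built from REL, RELA, RELB and the processed products of NFKB1 and NFKB2. In resting cells the classical IkB proteins hold the dimers in the cytoplasm, and receptor signals such as those from TLR4, CD40 or the B cell receptor lead to IkB phosphorylation, ubiquitination and degradation. The freed dimers bind kB sites in DNA and induce, among other genes, several of their own subunits and inhibitors, which makes the RNA of these genes a common readout of the pathway in B cells. IkB-zeta, encoded by NFKBIZ, and BCL3 are atypical members that act in the nucleus.

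Values are the deposited log2 values, 1 per probe set and array, and every difference is LPS minus control on that scale. A probe set has its own scale, so levels of different probe sets are not read as relative amounts of RNA. They serve only as a rough guide to bright and dim probe sets and to which markers are present. Tests were limma's moderated test, two-sided, adjusted by Benjamini-Hochberg over all 54613 probe sets, and "passed" means an adjusted p under 0.05. Array medians lay between 6.42 and 6.47, and the median of all probe set means was 6.45. Of the family's 20 probe sets, 17 had a mean above that median, as did the brightest probe set of all 9 genes. Markers of the labelled cell type were present: 6 measured B cell markers lay between 8.95 and 13.02 and 6 germinal centre markers between 8.19 and 12.08. Several of these markers were lower after LPS. The 6 germinal centre markers lay below 0 with a median difference of -0.32, and 1 of them, MYBL1, fell by 0.56 (limma adjusted p = 0.0288), where 0.207% of all genes fell. In a fit with array set, defined below, as a block 4 of the 6 fell, where 1.16% of all genes did: MYBL1 by 0.51, BACH2 by 0.39, CD38 by 0.38 and BCL6 by 0.30. Of the 6 B cell markers 5 lay below 0, with a median of -0.19, and CD79A fell by 0.35 in that fit (limma adjusted p = 0.0103). IL7R, listed as a marker of T cells, was at -0.52 (limma adjusted p = 0.0682) and fell by 0.44 in that fit (limma adjusted p = 0.00155). The part of these markers in the results below was not tested. Of the markers of other cells, the 6 of monocytes lay at 5.99 to 6.69. Those of T and NK cells lay at 6.17 to 6.53, apart from CD247 at 7.55 and IL7R at 10.13, and those of fibroblasts and epithelium at 5.93 to 6.73, apart from COL1A1 at 7.99. The 6 arrays also parted into 2 sets by the mean of 18 probe sets for added hybridisation controls. Set A (10.24 ± 0.045, SD, n = 3) held LPS 1, LPS 2 and control 1, and set B (10.57 ± 0.051, SD, n = 3) held LPS 3, control 2 and control 3. The labels name no such sets, and for the brightest probe set of each family gene values with array set as a block and within each set are given beside the pooled ones.

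With group as the only term, none of the 20 probe sets passed, where 0.264% of all probe sets did, 0.13% higher and 0.134% lower after LPS. The largest differences were those of the inhibitor NFKBIE at 0.49, the nuclear protein gene NFKBIZ at 0.44, the subunit RELB at 0.43 and the inhibitor NFKBIB at 0.28. By the brightest probe sets 8 of 9 genes lay above 0 and 1 below, with a median of 0.24, where the median of all genes was 0.0016 and 5% and 95% of them lay below -0.15 and 0.18. The unadjusted p was under 0.05 for 6 of the 20 probe sets, all with LPS higher, where 4.55% of all probe sets were of that kind. With array set as a block, 2 of the 20 passed and both were higher after LPS, those of NFKBIE and NFKBIZ, where 1.34% of all probe sets passed, 0.628% with LPS higher and 0.716% with LPS lower. The 4 IkB genes ranged from 0.16 to 0.49 with a median of 0.36, and the 5 subunit genes from -0.13 to 0.43 with a median of 0.18. The array set block gave medians of 0.32 and 0.032. The difference between the roles was not tested.

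**Figure D1:**
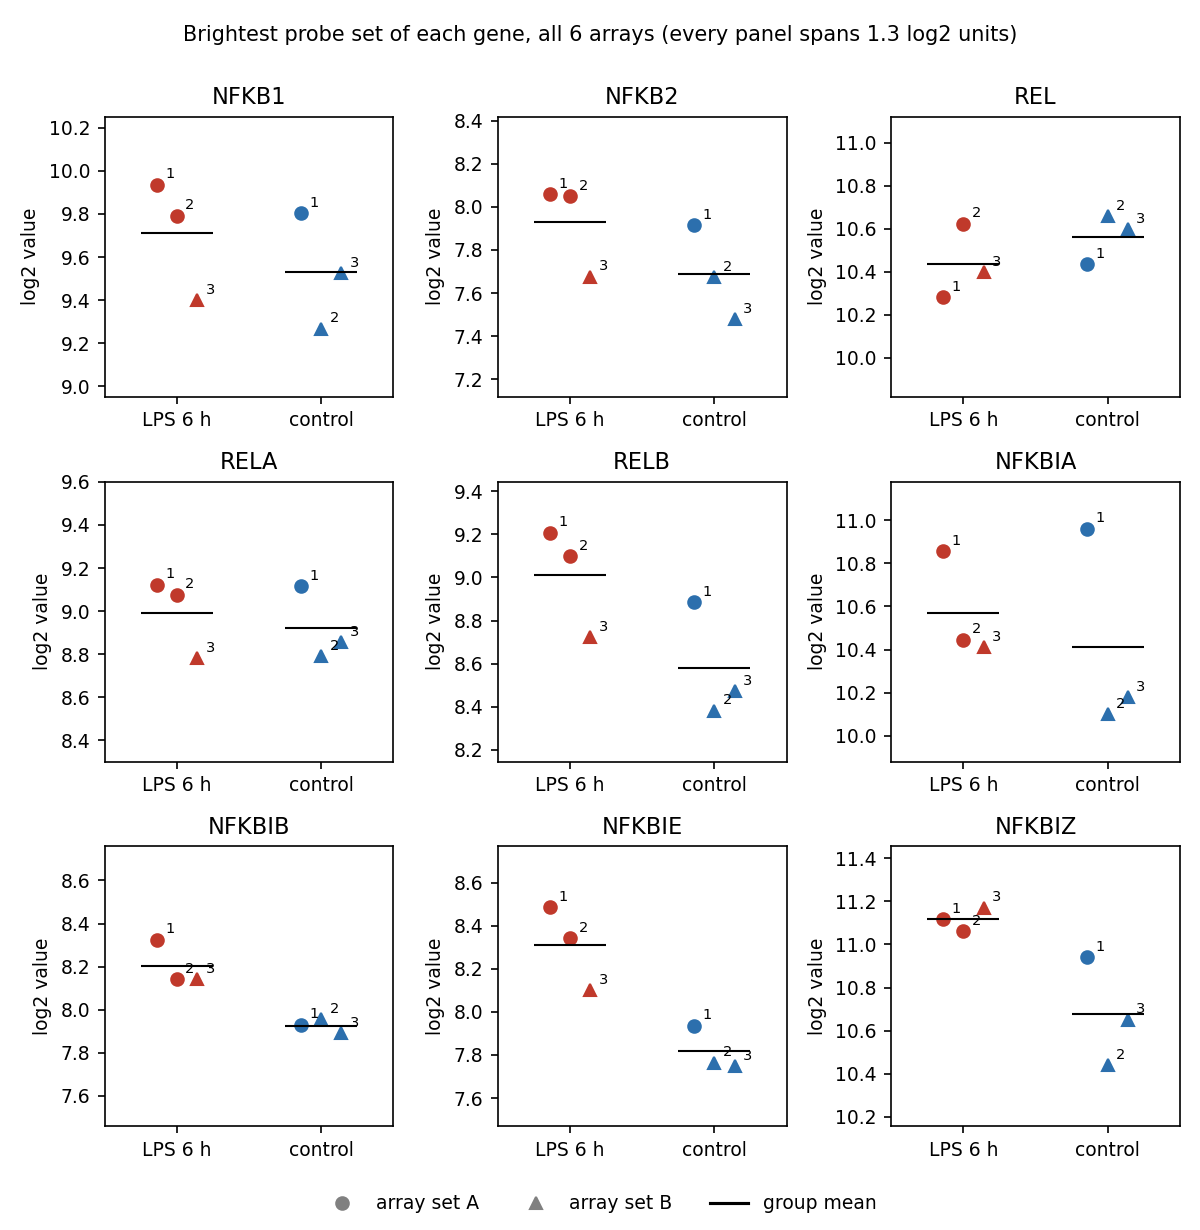
Deposited log2 values of the brightest probe set of each of the 9 genes, LPS left and control right, with replicate numbers; circles are set A arrays, triangles set B arrays and lines group means. The 3 LPS points lie above the 3 control points for NFKBIB, NFKBIE and NFKBIZ, as for 7.95% of all genes. In every gene but REL and NFKBIB the control 1 point lies above the other controls.

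NFKBIE encodes IkB-epsilon, a cytoplasmic inhibitor that holds dimers containing REL or RELA. Its only probe set stood at 8.49, 8.34 and 8.10 in LPS samples 1 to 3, against 7.94, 7.76 and 7.75 in controls 1 to 3. All LPS values lay above all control values, as for 7% of all probe sets, and within each group the set B arrays were the lower ones. NFKBIE differed by 0.49 (SE 0.098, 95% interval 0.28 to 0.70), a level 1.41-fold higher after LPS, with a limma adjusted p of 0.0572. Its p ranked 175 among 54613. Once array set was a block NFKBIE rose by 0.41 (limma adjusted p = 0.00369), with 0.48 in set A alone and 0.34 in set B alone. That call was lost without control 1, at 0.34 (limma adjusted p = 0.277), and without LPS 3, at 0.48 (limma adjusted p = 0.0833), where in each case a single set was left to give the difference. With group only, the gene passed without control 1 at 0.55 (limma adjusted p = 0.0195) and without LPS 3 at 0.60 (limma adjusted p = 0.0204). Without control 1 the remaining controls are both in set B, and without LPS 3 the remaining LPS arrays are both in set A. Group and array set are thus partly aligned in these fits, and set B minus set A was -0.25 for NFKBIE.

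NFKBIZ encodes IkB-zeta, which binds NF-kB subunits, chiefly the NFKB1 product, at promoters in the nucleus and is known as a rapidly induced coregulator of secondary response genes. Its brightest probe set stood at 11.12, 11.06 and 11.17 after LPS, against 10.94, 10.44 and 10.65 in controls. The LPS values were close together and above all controls, while the controls spread over a wider range with control 1 highest. The difference was 0.44 (SE 0.12, 95% interval 0.19 to 0.69), or 1.36-fold, with a limma adjusted p of 0.212. NFKBIZ rose by 0.39 in the fit with the array set block (limma adjusted p = 0.0247), where set A by itself gave 0.15 and set B 0.63. That call was lost without control 2 (0.31, limma adjusted p = 0.0578), without LPS 1 (0.41, limma adjusted p = 0.0607) and without LPS 3 (0.15, limma adjusted p = 0.936). With group only it passed without control 1, at 0.57 (limma adjusted p = 0.0203). The remaining controls were then both in set B, with 2 of the 3 LPS arrays in set A. The other NFKBIZ probe set stood at 10.55, 10.12 and 10.61 after LPS, against 10.32, 9.83 and 10.09 in controls. It overlapped between the groups, because LPS 2 lay below control 1, and its difference of 0.35 did not pass (limma adjusted p = 0.533, and 0.223 with array set as a block).

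NFKBIB encodes IkB-beta, a classical inhibitor that is less strongly induced by NF-kB than IkB-alpha in most cells. Its brightest probe set stood at 8.33, 8.14 and 8.14 after LPS, against 7.93, 7.96 and 7.89 in controls. All LPS values lay above a narrow band of controls, and the array sets differed little, by -0.049 for set B minus set A. The difference was 0.28 (SE 0.078, 95% interval 0.11 to 0.44), or 1.21-fold, and did not pass (limma adjusted p = 0.245). The array set block gave 0.26 (limma adjusted p = 0.107); set A alone gave 0.30 and set B 0.22. The second probe set gave 0.17 and the third, at a mean of 6.63 near the array medians, gave -0.040. The first and second carry the _x_at suffix, with which Affymetrix marks probes that may hybridise to other transcripts, so the gene's direction rests on probe sets open to that.

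NFKBIA encodes IkB-alpha, the classical inhibitor whose rapid resynthesis ends NF-kB activity in many cells. Its brightest probe set stood at 10.86, 10.45 and 10.41 after LPS, against 10.96, 10.10 and 10.18 in controls. The groups overlapped: control 1 was the highest of all 6 arrays, and controls 2 and 3 were the lowest. The difference was 0.16 with a 95% interval from -0.24 to 0.56 (limma adjusted p = 0.9), so a change of the size seen in NFKBIE lay inside the interval. Leaving out 1 array moved it from 0.0017 without control 2 to 0.43 without control 1, and it passed in none of the 6 fits. The array set block took it to -0.019, with an interval from -0.24 to 0.20. Set A, whose only control is control 1, gave -0.31, and set B gave 0.27. The dim second probe set, at a mean of 6.33, gave 0.058 (95% interval -0.072 to 0.19).

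**Figure D2:**
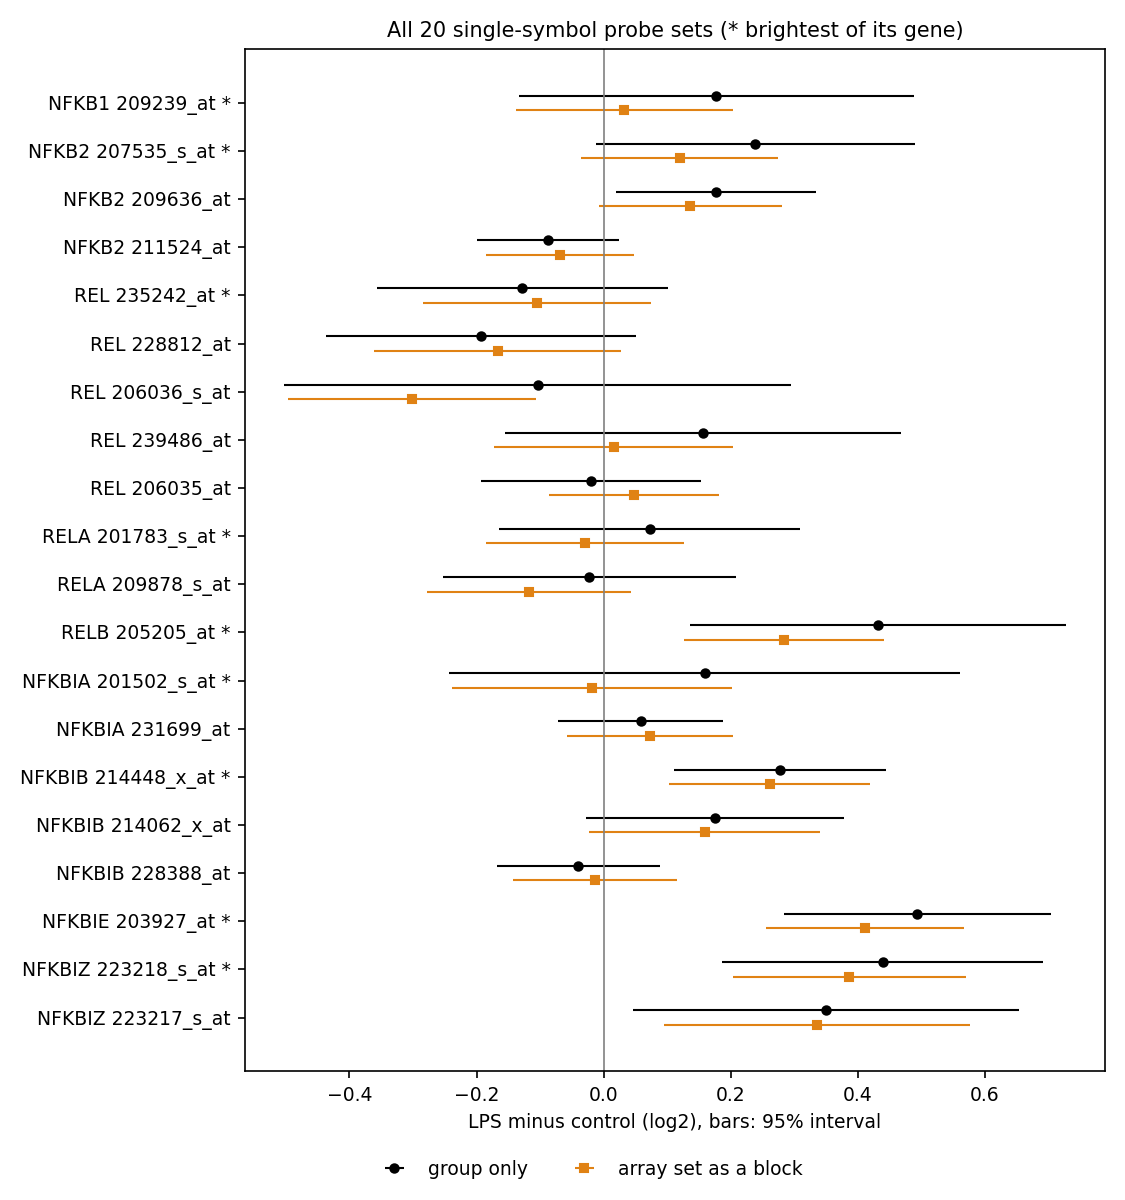
LPS minus control in log2 units for all 20 probe sets, with 95% intervals, from the fit with group only (black circles) and with array set as a block (orange squares); asterisks mark the brightest probe set of a gene. The intervals of the brightest probe sets of RELB, NFKBIB, NFKBIE and NFKBIZ lie above 0 in both fits, before any adjustment for the number of probe sets tested. With group only, 4.97% of all genes had an unadjusted p under 0.05 with LPS higher. The interval of the third REL probe set lies below 0 with array set as a block (-0.50 to -0.11).

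RELB encodes the subunit of the alternative pathway, which pairs mainly with the NFKB2 product and is itself a target of classical NF-kB. Its only probe set stood at 9.21, 9.10 and 8.72 after LPS, against 8.88, 8.38 and 8.47 in controls. LPS 3 lay below control 1, so the groups overlapped. Within each array set every LPS value was above every control value, as for the brightest probe sets of NFKB2, NFKBIB, NFKBIE and NFKBIZ. Each set has a single array of 1 group, and the share of all genes with this pattern was not counted. The difference was 0.43 (SE 0.14, 95% interval 0.14 to 0.73), or 1.35-fold (limma adjusted p = 0.344). Set A gave 0.27 and set B 0.30, and the fit with the array set block gave 0.28 (SE 0.076, limma adjusted p = 0.0683). Without control 1 the fit with group only gave 0.58 and passed (limma adjusted p = 0.0358), with the remaining controls both in set B and 2 of the 3 LPS arrays in set A.

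NFKB2 encodes the precursor that is processed to the partner of RELB and that in its full length acts as an inhibitor. Its brightest probe set stood at 8.06, 8.05 and 7.68 after LPS, against 7.91, 7.67 and 7.48 in controls. The set A arrays were highest in both groups, and LPS 3 lay below control 1. The difference was 0.24 with an interval from -0.012 to 0.49 (limma adjusted p = 0.644). The array set block gave 0.12 (limma adjusted p = 0.663), with 0.14 and 0.099 within sets A and B. Leaving out 1 array, the pooled value ranged from 0.13 without control 3 to 0.36 without LPS 3. The second probe set stood at 7.26, 7.27 and 7.08 after LPS, against 7.06, 6.93 and 7.08 in controls, a difference of 0.18 (limma adjusted p = 0.551). The third, at a mean of 5.91 below the array medians, gave -0.087.

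NFKB1 encodes the precursor of the most common DNA-binding partner of RELA and REL. Its only probe set stood at 9.94, 9.79 and 9.40 after LPS, against 9.80, 9.27 and 9.53 in controls. The groups overlapped, with set A arrays above set B arrays in each group. The pooled difference of 0.18 (95% interval -0.13 to 0.49, limma adjusted p = 0.825) became 0.032 with array set as a block (95% interval -0.14 to 0.20). Set A gave 0.060 and set B 0.0045. Leaving out 1 array, the pooled value ranged from 0.045 without control 2 to 0.33 without LPS 3.

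RELA encodes the main transactivating subunit of the classical pathway, whose activity is set largely by release from IkB. Its brightest probe set stood at 9.12, 9.08 and 8.78 after LPS, against 9.12, 8.79 and 8.86 in controls. LPS and control arrays of the same set lay side by side. The pooled difference was 0.072 (95% interval -0.16 to 0.31), and with array set as a block it was -0.030 (95% interval -0.18 to 0.13), so a rise as large as that of NFKBIE lay outside the interval in both fits. Set A gave -0.016 and set B -0.043. Leaving out 1 array, the pooled value ranged from 0.0076 without control 2 to 0.18 without LPS 3. The second RELA probe set gave -0.022, and -0.12 with array set as a block.

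REL encodes c-Rel, a transactivating subunit prominent in lymphoid cells. It had 5 probe sets, and the brightest stood at 10.28, 10.62 and 10.40 after LPS, against 10.43, 10.66 and 10.60 in controls. The groups overlapped, and the difference was -0.13 (95% interval -0.36 to 0.10, limma adjusted p = 0.832). The array set block gave -0.10 (limma adjusted p = 0.785); set A alone gave 0.019 and set B -0.23. Leaving out 1 array, the pooled value ranged from -0.22 without LPS 2 to -0.052 without LPS 1. The others gave -0.19, -0.10, 0.16 and -0.020 in order of falling level, and 0 of the 5 passed in either fit. They disagreed by array set: the 4 brightest lay between -0.050 and 0.24 within set A and between -0.55 and -0.21 within set B. The third probe set gave -0.30 with array set as a block (95% interval -0.50 to -0.11, limma adjusted p = 0.148). It stood at 9.04 in LPS 3, against 9.62 and 9.56 in controls 2 and 3 of the same set. In set A it stood at 9.78 and 9.99 in LPS 1 and 2, against 9.93 in control 1. The single LPS array of set B was thus low by each of these 4 probe sets.

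The array sets themselves separated much of the family. With group in the fit, set B minus set A was negative and passed for 5 of the 9 genes by their brightest probe sets, where set A was higher and passed in 2.96% of all genes. These were NFKBIA at -0.53 (limma adjusted p = 0.00291), RELB at -0.44 (limma adjusted p = 0.000604), NFKB1 at -0.43 (limma adjusted p = 0.00181), NFKB2 at -0.36 (limma adjusted p = 0.00445) and RELA at -0.31 (limma adjusted p = 0.0164). In these 5 genes the difference between array sets was larger in size than the LPS difference of the same fit, and in REL, NFKBIB, NFKBIE and NFKBIZ it was smaller. Of the genes, 7 of 9 had the same sign of the LPS difference in both sets, 6 of them with LPS higher in each. A test of whether the LPS difference itself differed between the sets, with an interaction term, passed for 0 of the 20 probe sets by limma, where 0.00183% of all passed. By unadjusted p 6 of the 20 were under 0.05, where 4.55% of all probe sets were: NFKBIA by its brightest probe set, both of NFKBIZ and 3 of REL. Set A holds 1 control and set B 1 LPS array, so each of these differences rests on single arrays. The 3' to 5' difference of ACTB, which tracks RNA integrity, ranged over 0.37 to 0.41 on set A arrays and over 0.44 to 0.48 on those of set B, and that of GAPDH 0.13 to 0.16 over all arrays. The part of these measures in the family's values was not tested.

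**Figure D3:**
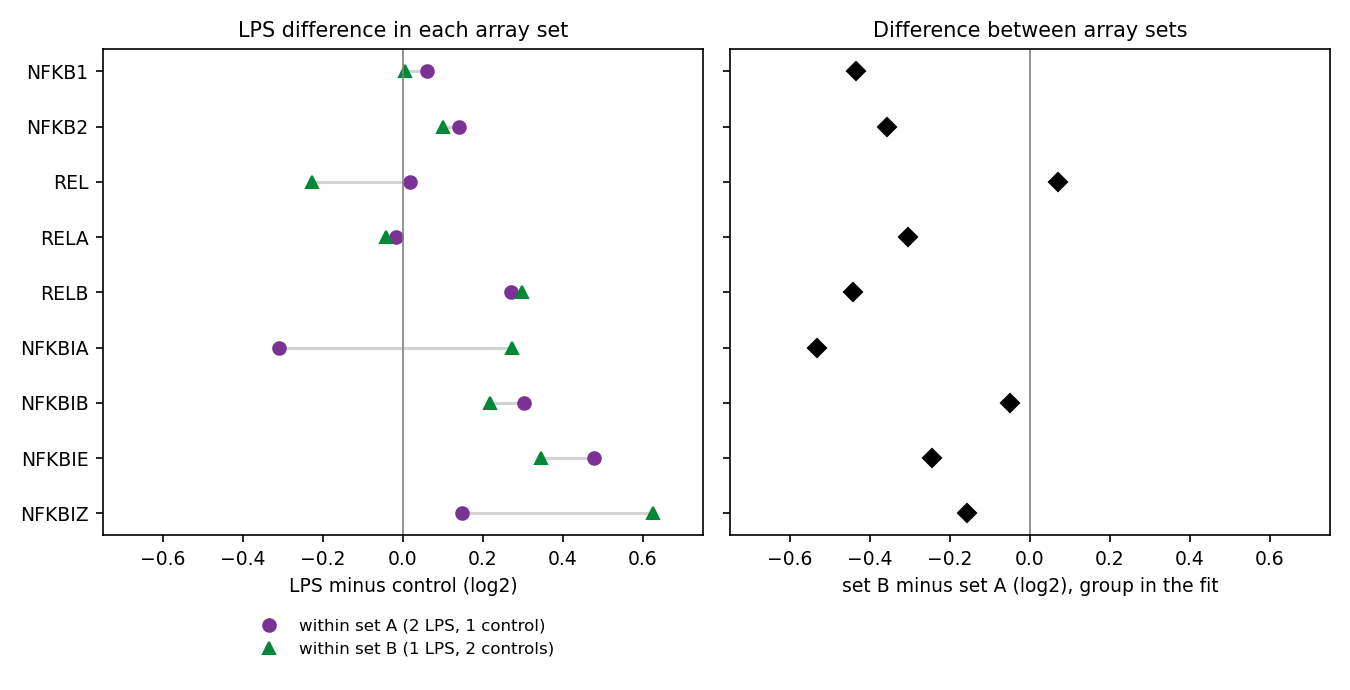
Left, LPS minus control in log2 units within set A (circles, 2 LPS arrays and 1 control) and within set B (triangles, 1 LPS array and 2 controls) for the brightest probe set of each gene. Right, set B minus set A in log2 units from the fit with group and array set. The left panel has 6 genes above 0 in both sets, RELB and NFKBIE among them; NFKBIA lies at -0.31 and 0.27, and 5 genes lie at or below -0.31 in the right panel.

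The pattern over the 6 arrays most like that of NFKBIE, the gene with the smallest p of the family, was found in SPTSSA (Pearson r = 0.997), RBM47 (0.995), BCAR3 (0.994) and UAP1 (0.993), among 12653 genes above the median level. SPTSSA encodes a subunit of serine palmitoyltransferase, RBM47 an RNA-binding protein, BCAR3 a signalling adaptor and UAP1 an enzyme of amino sugar metabolism. None of the 4 passed the test, with differences of 0.17 to 0.33. These genes were measured on the same 6 arrays, which fall into the 2 array sets, and 395 genes had an r above 0.9, so the list describes these arrays only.

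Sequences upstream of the family are shown because kB sites in its promoters are the known route by which NF-kB induces its own regulators. RefSeq promoter windows of assembly GRCh38.p14, from 250 bases before to 50 after a gene start, were matched for 8 of the 10 genes (14 windows). RELB and NFKBIE were not among them. The windows were searched on both strands for a wide kB motif, GGGA and CC with any 4 bases between, and for a narrow one, GGGAA and CC with any 3 bases between, whose matches are a subset. All 8 genes held the wide motif, which 29% of 27305 genes with a window hold, and 7 of the 8 held the narrow one, which 8.28% of genes hold. A gene with more windows has more places for a match. By window, 13 of 14 held the wide motif and 9 of 14 the narrow one, where 25.6% and 6.9% of 35116 windows do. Of the matched letters, GGGAATTTCC was shared most widely, by 5 of the 8 on either strand, and 0.179% of all genes hold it; it was picked because the family shares it. Matches are letters in a window and were not measured for binding here. All narrow matches before a start, held by 6 of the genes, are given below, each read 5′ to 3′ on the strand that matches, with the position of the leftmost base relative to the gene start in the direction of the gene.
NFKB1, position -49: GGGAATTTCC
NFKB2, second start, position -107, the same on both strands: GGGAATTCCC
NFKB2, second start, position -77, opposite strand: GGGAAAGCCC
NFKB2, the third start, position -176, opposite strand: GGGAAGCCCC
REL, position -47: GGGAAATTCC
REL, position -46, opposite strand, overlapping the last: GGGAATTTCC
NFKBIA, position -81, opposite strand: GGGAATTTCC
NFKBIB, second start, position -28: GGGAATTTCC
NFKBIB, second start, position -27, opposite strand, overlapping the last: GGGAAATTCC
NFKBIZ, first start, position -223: GGGAATTTCC
NFKBIZ, second start, position -239, opposite strand: GGGAAACCCC

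The 250 bases before the first start of NFKBIZ and before the start of NFKBIA are given in full. NFKBIZ passed with array set as a block but not with group only, and NFKBIA passed in neither fit. The call of NFKBIZ was lost without control 2, LPS 1 or LPS 3. Whether the sites have a part in this was not tested. Both stretches hold the same 10 letters, in capitals, on the gene's own strand in NFKBIZ and on the opposite strand in NFKBIA. The second NFKBIZ start holds a different narrow match, given above. The NFKBIZ stretch is chr3:101827740-101827989 on the plus strand and the NFKBIA stretch chr14:35404750-35404999 on the minus strand, both GRCh38.p14.
NFKBIZ: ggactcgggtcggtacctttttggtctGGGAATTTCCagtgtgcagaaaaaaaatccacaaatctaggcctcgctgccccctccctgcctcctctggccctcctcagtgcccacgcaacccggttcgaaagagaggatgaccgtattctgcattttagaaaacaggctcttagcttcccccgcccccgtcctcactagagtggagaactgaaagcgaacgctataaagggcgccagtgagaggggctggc
NFKBIA: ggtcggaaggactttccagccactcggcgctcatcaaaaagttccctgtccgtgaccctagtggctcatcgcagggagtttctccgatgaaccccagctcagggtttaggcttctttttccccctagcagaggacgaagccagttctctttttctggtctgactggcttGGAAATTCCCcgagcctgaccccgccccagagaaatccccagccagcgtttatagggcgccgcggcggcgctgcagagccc
Of the 8 genes with a window, only RELA held no narrow motif. RELB and NFKBIE had no window, and the part of the motif in the LPS differences was not tested.

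The rest of the pathway was described by 7 lists of 100 genes in all, of which 89 were measured. In the fit with group only 1 of the 89 rose and 0 fell, where 0.182% and 0.207% of all genes did, and their median difference was 0.053 against 0.0016 for all genes. Under the array set block 8 rose and 1 fell, where 0.865% and 1.16% of all genes did. These lists were chosen with results of these data known, so the counts describe them and are not independent evidence.

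The IKK complex phosphorylates IkB through its kinases CHUK and IKBKB and its scaffold IKBKG. None of the 3 passed, at 0.26 for CHUK, -0.015 for IKBKB and 0.066 for IKBKG, and of the 3 only CHUK had LPS values all above control values, as 7.95% of all genes did. CHUK gave 0.23 with the array set block (limma adjusted p = 0.233). Among the related kinases, IKBKE, a kinase of the interferon response, was the pathway gene that rose. IKBKE stood at 8.82 ± 0.048 after LPS and 8.10 ± 0.18 in controls (SD, n = 3 each), a difference of 0.72 (SE 0.093, limma adjusted p = 0.00735), with 0.64 by its other probe set, which also passed. The array set block gave 0.66 (limma adjusted p = 3.39e-05); set A alone gave 0.55 and set B 0.78. The IKBKE call was lost without control 3 (limma adjusted p = 0.0676) and without LPS 2 (limma adjusted p = 0.079). TBK1, the kinase most like IKBKE, gave 0.011, and TANK, the scaffold of both, 0.032. The ubiquitin ligase that marks phosphorylated IkB for degradation had 0 of 5 subunits passing, with BTRC at 0.029, FBXW11 at 0.065, CUL1 at 0.084, RBX1 at -0.074 and SKP1 at -0.033.

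Of 16 measured kinases and adaptors upstream of IKK, 14 lay above 0 and 0 passed, with a median of 0.045. The kinase MAP3K8, which the NFKB1 precursor binds and stabilises, was at 0.29 (limma adjusted p = 0.0853) by its brightest probe set. It rose with array set as a block, by 0.30 (limma adjusted p = 0.0131), at a mean of 6.49 near the array medians. Its other probe set gave 0.069 with group only and 0.0081 with array set as a block. The receptor adaptor TRAF5 was at -0.18 and the kinase IRAK1 at 0.16. Of 15 measured negative regulators 9 lay above 0 and 0 passed, with a median of 0.0015. TNFAIP3, the ubiquitin-editing enzyme A20 and a known NF-kB target, was at 0.39 (limma adjusted p = 0.0788). It rose by 0.35 with array set as a block (limma adjusted p = 0.0143). The other TNFAIP3 probe set did not pass in that fit, at 0.27 (limma adjusted p = 0.0569). TAX1BP1, an A20 partner, was at -0.21, and TNIP3 at 0.090. Of 5 measured nuclear cofactors all lay above 0 and 0 passed. NCOA1 was at 0.28, NKRF, a repressor of NF-kB promoters, at 0.16 and the deacetylase HDAC3 at 0.13. With array set as a block NCOA1, NKRF and HDAC3 gave 0.14, 0.13 and 0.13.

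Of 45 measured NF-kB target genes outside the family, 32 lay above 0 and 13 below, with a median of 0.067, and 0 passed. The unadjusted p was under 0.05 for 12 of them, 10 with LPS higher, where 9.56% of all genes had such a p and 4.97% had it with LPS higher. Under the array set block 7 rose and 1 fell, where 0.865% and 1.16% of all genes did. The gene that fell was CD86, the costimulatory ligand of CD28, at -0.38 (limma adjusted p = 0.00758). All 3 CD86 probe sets had LPS values below control values, as 6.38% of all probe sets did. Of the other 2 in the same fit, 1 passed at -0.31 (limma adjusted p = 0.0251) and 1 did not, at -0.22 (limma adjusted p = 0.165). Those that rose included IRF4, a REL target that drives B cells towards plasma cells, at 0.48 by its brightest probe set (limma adjusted p = 0.00189). The other 2 IRF4 probe sets did not pass in that fit, at 0.21 (limma adjusted p = 0.243) and 0.041 (limma adjusted p = 0.889). The other 6 target genes that rose were TNFAIP3 and MAP3K8, given above, and BCL2A1, ICAM1, GADD45B and SOD2, which were named after their values were seen, at 0.36, 0.34, 0.40 and 0.29. SOD2, at a mean of 6.50 near the array medians, was highest in LPS 3 (6.96) and gave 0.12 in set A and 0.46 in set B. Its limma adjusted p was 0.0491 with array set as a block and 0.839 with group only. With array set as a block, NFKBIE and NFKBIZ were at 0.41 and 0.39. The target genes named as rising were picked by passing that fit, so their range is no independent comparison. The median of all 45 was 0.053.

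**Figure D4:**
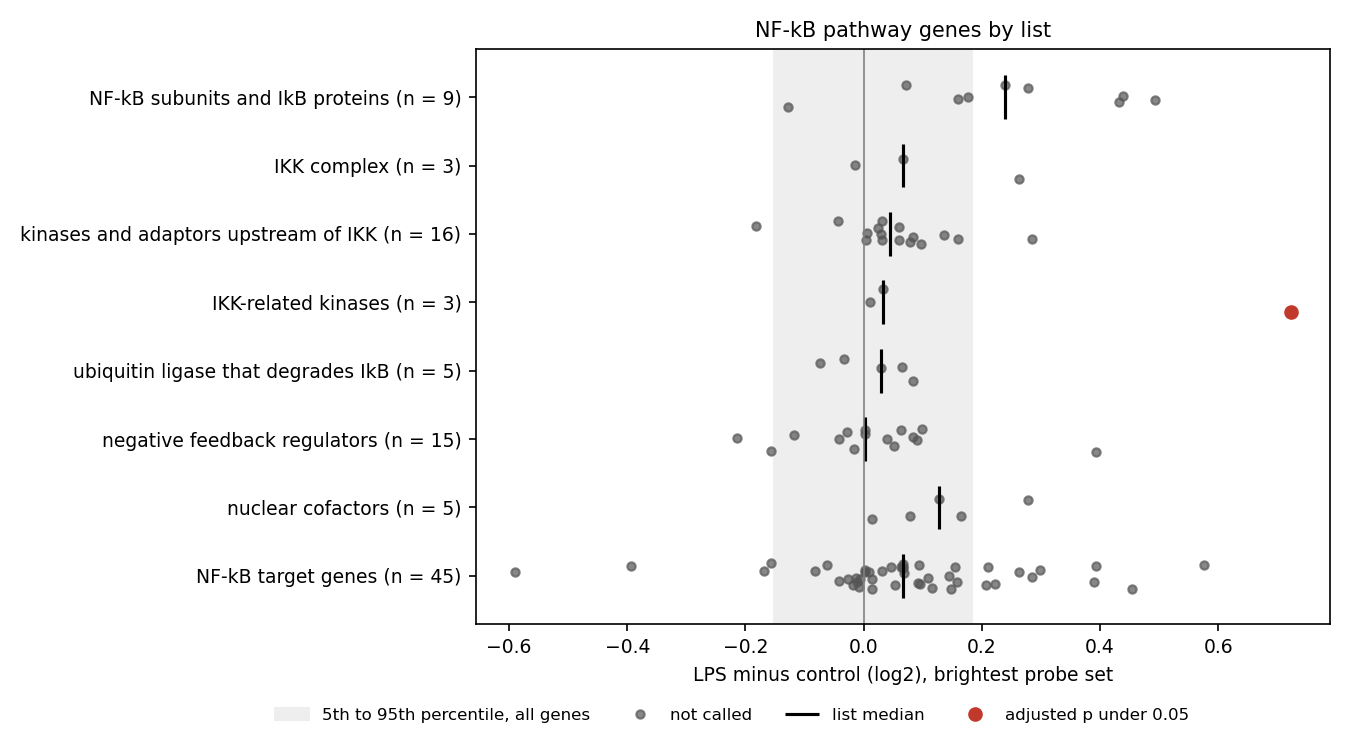
LPS minus control in log2 units by the brightest probe set for the 9 family genes and the genes of the 7 pathway lists; vertical bars are list medians, the grey band runs from the 5th to the 95th percentile of all genes, -0.15 to 0.18, and IKBKE at 0.72 is the red point that passed the test. The family's median is 0.24, and 5 of its 9 genes lie to the right of the band.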

How the data were processed

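Each of 6 BL-2 samples had its RNA hybridised to 1 Affymetrix array. The authors deposited 1 value per probe set and array, taken as log2 because values ran from 5.46 to 14.81. The log base is inferred, and how the authors normalised the values is not given in the sources used. After 62 control probe sets were left out, 54613 were tested with limma 3.58.1 in R 4.3.3: group as the only term, empirical Bayes with an intensity trend, Benjamini-Hochberg over all probe sets, threshold 0.05, intervals of 95%. Precision is limited by there being 6 arrays (median SE 0.063). Of tested probe sets, 41091 had 1 symbol, 1801 several and 11721 none. Symbols were checked against RefSeq by gene identifier: 41037 matched, with 0 changed. A gene was represented by its brightest single-symbol probe set. Array sets were found by parting the arrays at the widest gap of the hybridisation control mean, 0.22, against 0.081 for the next. Named were the family, and per list all passing genes and the 3 with the smallest p, or all genes of lists of 5 or fewer. The members, lists and array sets were chosen with earlier results of these data known; motifs were chosen from general knowledge. Steps were tested on simulated data. Whether replicate numbers pair the samples could not be decided. The correlations of same-numbered deviations were 0.44, -0.040 and 0.23, but samples numbered 1 and 3 share an array set and those numbered 2 do not.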

Additional observations from a re-analysis of the deposited data

How the results depend on the processing

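Whether the replicate numbers shared by the groups pair the samples could not be decided. With a replicate block, 498 of all probe sets (0.912%) passed against 144 in the fit with group only, as did 3 probe sets of the family (3 genes: NFKBIE, NFKBIZ and RELB) and 7 pathway genes against 1. LPS 1 and LPS 2 correlated best with control 1 and LPS 3 with control 2, in each case a control of the same array set. With array set as a block, 734 of all probe sets, 2 of the family (2 genes) and 9 pathway genes passed. Quantile normalisation gave 292 and array weights 309 of all probe sets. Each of these, centring arrays on their medians, a threshold of 0.1 and averaging the probe sets of a gene gave 1 family probe set or gene, NFKBIE. A filter on low probe sets gave 2 pathway genes. Leaving out 1 sample gave 10 (without LPS 2) to 374 (without control 1) of all probe sets, and also 46, 14, 44 and 120 without control 2, control 3, LPS 1 and LPS 3. It gave 0 to 3 in the family, with 3 without control 1, and 0 to 6 pathway genes. With array set as a block as well, an alternative added after seeing the data, leaving out a sample gave 0 (without LPS 3) to 4 (without LPS 2) family probe sets and 0 to 2 genes.

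Signs turned for 11 genes, as follows. With array set as a block these were RELA at -0.030, NFKBIA at -0.019, RBX1 at 0.011 and SKP1 at 0.020, and NFKBIB was at -0.040 without _x_at and _s_at probe sets. Leaving out 1 sample, IKBKB ranged from -0.15 to 0.11, TANK from -0.012 to 0.061, TBK1 from -0.022 to 0.052, RBX1 from -0.21 to 0.0054, BTRC from -0.019 to 0.077 and SKP1 from -0.098 to 0.023. With array set as a block as well, RELA was at -0.043, -0.041, -0.014, -0.041, -0.022 and -0.016 without controls 1 to 3 and LPS 1 to 3, NFKB1 at -0.019 without control 2 and -0.0023 without LPS 1, NFKBIA at -0.077, -0.043, -0.065 and -0.31 without controls 2 and 3 and LPS 1 and 3, and REL at 0.019 without LPS 3. The cause was not tested. The dimmest probe sets of NFKB2, REL, NFKBIA and NFKBIB lay at or below 6.63, near or under the array medians, which limits what they can show.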
